A study of Homo sapiens with 36 samples.

Results

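Complex I, NADH:ubiquinone oxidoreductase, is the entry point of electrons into the mitochondrial respiratory chain, and 36 of its nuclear-encoded subunit genes were followed here among the 62757 genes of the count tables. The 36 genes were taken from a fixed list of symbols and matched by Ensembl identifier. No rule on measured values picked them, but the list was chosen with earlier results of these data known. Human HCT-116 colorectal carcinoma cells, either WT or FBXW7-/- (KO), were profiled by polyA RNA-seq in 24 libraries that form 8 groups of 3. For 48 h, KO cells received a control esiRNA (esiCT), or esiHDAC4, which targets HDAC4, or esiCT together with PROTAC #11, a compound that degrades class IIa HDACs. OXPT (oxaliplatin, a platinum drug that damages DNA) was added at 50 µM for the last 24 h in 1 arm of each condition, and the other arm was left untreated. The fourth condition was WT cells without and with OXPT. Their titles name the control esiRNA and their treatment entries name esiHDAC4, so the esiRNA of the WT groups is not settled. For #11 the treatment entry gives 1 µM and the description entry 10 µM. The KO line was bought from a supplier as FBXW7-/- cells, and the study reports that it checked the knockout by Sanger sequencing and by immunoblot. The study's statistics section speaks of independent experiments for figures in general, and the labels do not say whether the libraries of a group came from separate cultures, so p-values measure the spread between these libraries, which may be technical. A further 12 WT libraries, whose labels contradict each other on OXPT, were left out of every comparison.

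As background, complex I is an L-shaped enzyme. Its N module oxidises NADH through the flavin-bearing subunit NDUFV1 and the iron-sulfur proteins NDUFV2 and NDUFS1. Its Q module passes the electrons through NDUFS8 and NDUFS7 to ubiquinone, beside NDUFS3. The membrane arm pumps protons with mitochondrial-encoded ND subunits at its core, around which nuclear accessory subunits of the proximal and distal arm are needed for assembly and stability. The nuclear genes are widely expressed, and NRF1, ETS-family factors such as GABP, and YY1 are known to act on promoters of respiratory chain genes.

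The promoters of 5 members are printed because their genes carry the results below: NDUFV3, the member that rose most often after OXPT; NDUFA10, which stood lower after OXPT; NDUFS3 and NDUFS7, core subunits that hold searched motifs; and NDUFB8, the member with the widest range between libraries. Each run is RefSeq sequence of build GRCh38.p14, 5′ to 3′ on the gene's strand, from 250 bases before to 50 bases after an annotated start. NDUFV3 is at chr21:42893059-42893358 (plus strand), NDUFA10 at chr2:240025293-240025592 (minus), NDUFS3 at chr11:47578824-47579123 (plus), NDUFS7 at chr19:1383657-1383956 (plus) and NDUFB8 at chr10:100529822-100530121 (minus). Capitals mark matches to the motifs CGCATGCG (NRF1-type), CCGGAAG or its reverse complement CTTCCGG (ETS-type) and AAGATGGC or GCCATCTT (YY1-type).
NDUFV3: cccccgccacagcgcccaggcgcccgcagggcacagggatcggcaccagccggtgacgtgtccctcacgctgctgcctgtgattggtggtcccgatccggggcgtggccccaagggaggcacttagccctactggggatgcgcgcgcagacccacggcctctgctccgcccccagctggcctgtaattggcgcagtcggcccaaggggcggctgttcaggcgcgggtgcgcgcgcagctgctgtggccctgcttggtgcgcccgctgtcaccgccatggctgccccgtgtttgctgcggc
NDUFA10: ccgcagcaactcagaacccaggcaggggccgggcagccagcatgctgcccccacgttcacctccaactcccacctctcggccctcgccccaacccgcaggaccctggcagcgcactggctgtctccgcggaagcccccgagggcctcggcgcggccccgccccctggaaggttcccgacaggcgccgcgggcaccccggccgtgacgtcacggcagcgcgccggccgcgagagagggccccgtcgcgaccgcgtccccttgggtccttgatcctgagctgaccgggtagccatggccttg
NDUFS3: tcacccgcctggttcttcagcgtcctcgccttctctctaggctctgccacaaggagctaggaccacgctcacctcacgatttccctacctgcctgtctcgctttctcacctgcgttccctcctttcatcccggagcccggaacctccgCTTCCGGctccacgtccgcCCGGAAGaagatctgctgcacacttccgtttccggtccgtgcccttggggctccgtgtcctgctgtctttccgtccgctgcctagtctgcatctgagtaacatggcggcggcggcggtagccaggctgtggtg
NDUFS7: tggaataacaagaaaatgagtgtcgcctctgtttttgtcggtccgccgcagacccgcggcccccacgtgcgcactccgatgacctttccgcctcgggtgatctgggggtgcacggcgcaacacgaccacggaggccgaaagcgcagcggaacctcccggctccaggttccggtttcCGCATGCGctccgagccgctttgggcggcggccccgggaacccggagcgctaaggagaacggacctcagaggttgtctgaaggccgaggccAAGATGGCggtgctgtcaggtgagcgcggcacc
NDUFB8: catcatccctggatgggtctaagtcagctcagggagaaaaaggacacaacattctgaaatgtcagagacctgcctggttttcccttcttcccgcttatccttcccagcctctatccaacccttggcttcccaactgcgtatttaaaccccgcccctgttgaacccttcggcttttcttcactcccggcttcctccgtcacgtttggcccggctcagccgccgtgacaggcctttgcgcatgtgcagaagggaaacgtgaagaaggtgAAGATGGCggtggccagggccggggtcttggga

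Promoter windows were found for 32 of the 36 members, with none for NDUFC2, NDUFS5, NDUFB9 and NDUFB5. The NRF1-type letters lay in windows of 5 of the 32 members (15.6%) and of 2.46% of 27305 genes. These 5 were NDUFA5, NDUFA8, NDUFB4, NDUFS6 and NDUFS7. The YY1-type letters lay in 7 of 32 (21.9%) against 3.52% of all genes, and the ETS-type letters in 5 of 32 (15.6%) against 12.2%. NDUFS7 held both the NRF1-type and the YY1-type letters, and NDUFV3 and NDUFA10 held none of the searched letters. The motifs do not overlap one another as written, and a match describes letters in a window, not a bound site.

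Across the 24 libraries the deposited counts assigned to genes ranged from 10725966 to 20527222 (median 14510758), of which the 36 members took 30509 to 63922. HDAC4 in KO cells read 19.1 ± 5.46 CPM with esiCT and 10.9 ± 3.48 CPM with esiHDAC4 (SD, n = 3), where CPM are counts scaled to the library total with TMM factors. With OXPT the same groups read 6.50 ± 0.915 and 3.88 ± 0.481 CPM, and untreated WT cells read 22.0 ± 3.44 CPM. FBXW7 mRNA read 16.9 ± 1.34 CPM in KO esiCT and 21.1 ± 3.60 CPM in WT without OXPT, which does not by itself check the edited allele. Of the epithelial markers, EPCAM, KRT8, KRT18, KRT19 and CDH1 had a lowest level of 43.4 CPM or more, while VIL1 was absent from 5 libraries and never passed 0.481 CPM. Of 9 leukocyte, fibroblast and endothelial markers, PTPRC, CD3E, DCN and CDH5 had a median of 0 CPM and COL1A1 was present at 25.1 to 77.6 CPM. KO esiCT OXPT replicate 3 stood apart from the other 23 libraries: 22.3% of its reads were unmapped, against at most 13.8% elsewhere, and its TMM factor was 0.789 against 0.851 to 1.10. The median of each comparison that uses this library, and the members named there, are therefore given with and without it. It also enters the spread shared by the other comparisons.

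In untreated KO esiCT cells the subunit mRNAs spanned a wide range of levels per kb of the main transcript. The highest was NDUFS5, an accessory subunit of the proximal arm on the intermembrane-space side, at 577 ± 27.3 CPM per kb (SD, n = 3). NDUFB9 followed at 404 ± 20.1, NDUFB10 at 382 ± 28.3 and NDUFS6 at 292 ± 31.1 CPM per kb. NDUFB9 and NDUFB10 did not differ beyond their spread, and neither did NDUFB4 (246 ± 12.3) and NDUFA1 (245 ± 20.8). Of the core subunits, NDUFS8 stood at 191 ± 18.4, NDUFV1 at 144 ± 16.4, NDUFS3 at 102 ± 10.1, NDUFS7 at 11.9 ± 1.53 and NDUFS1 at 6.41 ± 0.643 CPM per kb. The lowest was NDUFV2 at 0.767 ± 0.444 CPM per kb, beside NDUFA9 at 0.928 ± 0.228.

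**Figure D1:**
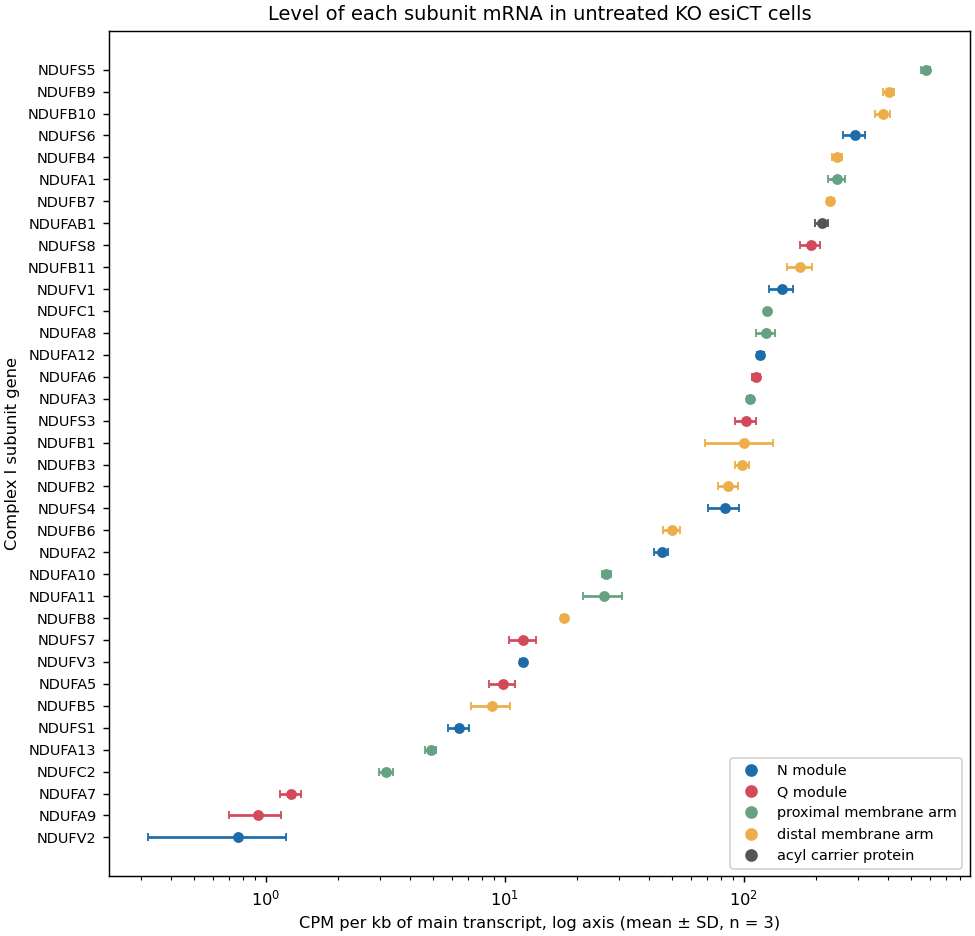
Level of each of the 36 subunit mRNAs in untreated KO esiCT cells, in CPM per kb of the main transcript on a log axis; points are means and bars SD of 3 libraries, coloured by the subunit's place in the complex. NDUFS5 is highest at 577 CPM per kb, and NDUFV2, NDUFA9 and NDUFA7 are at or below 1.27 CPM per kb.

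The low end of that order is partly set by the annotation. Each level was divided by the length of 1 annotated main transcript, from 317 bases (NDUFB1) to 11660 bases (NDUFS1). Gene counts do not tell which isoform the cells used. The main transcripts of NDUFV2, NDUFA13 and NDUFA7 share 90.0%, 83.9% and 77.9% of their bases with another gene on the same strand, and reads in shared bases are not counted for either gene. These 3 members read at most 1.18, 3.90 and 1.31 CPM in any of the 24 libraries and fell below the count minimum, which left 33 of 36 members for testing. NDUFB8 (72.0% shared) and NDUFA11 (68.2%) passed the minimum with a level that leaves out most of their transcripts, and NDUFC2 shares 19.7%. NDUFS7 shares 51.3% of its bases with genes on the opposite strand, NDUFA2 27.4%, NDUFB2 24.3% and NDUFB9 23.9%. The libraries carried no strand, with 1.00 to 1.02 reverse reads per forward read. The levels of these genes are therefore uncertain, and for 21 of the 36 members no base of the main transcript is shared.

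Summed over the members, libraries of the same group in part lay far apart. The summed level of the 36 members was 3225 ± 36.3 CPM in KO esiCT cells and 4742 ± 2264 CPM with OXPT (SD, n = 3). The 3 untreated libraries read 3221, 3190 and 3262 CPM, and the 3 OXPT libraries 3089, 3813 and 7323 CPM. Replicate 3 of the OXPT group was thus the highest of all libraries, and the other 23 ranged from 2189 to 4611 CPM. In that library 31 of the 33 tested members lay above their own 24-library mean, and 29 of 33 had their highest value there. In KO esiHDAC4 cells the sums were 2708, 2945 and 2914 CPM untreated and 2664, 3835 and 4611 CPM with OXPT, and the groups overlapped. In KO #11 cells they were 2713, 2964 and 2189 CPM untreated and 3643, 4020 and 3381 CPM with OXPT, with no overlap. In WT cells they were 3226, 2200 and 4402 CPM untreated and 3455, 3528 and 4369 CPM with OXPT, and the groups overlapped. In these bulk samples, fewer transcripts per cell and a smaller share of cells that express a gene cannot be told apart.

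**Figure D2:**
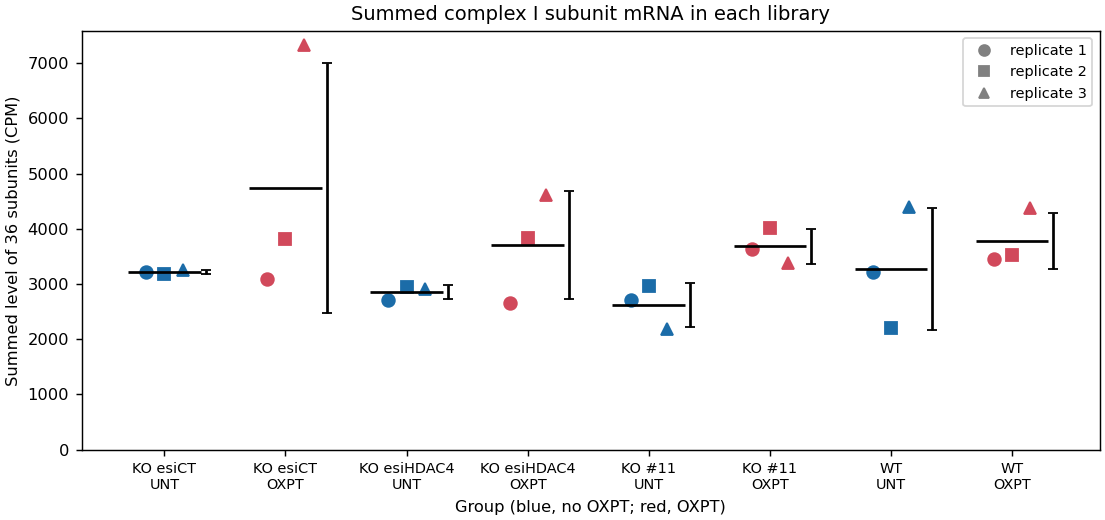
Summed level of the 36 members in CPM for each library (circle, square and triangle for replicates 1, 2 and 3; blue without and red with OXPT); lines are group means and bars SD of 3 libraries. KO esiCT OXPT replicate 3 sits at 7323 CPM, above the range of 2189 to 4611 CPM of the other 23 libraries.

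Members differed in how far they followed this common shift. NDUFB8, an accessory subunit of the distal arm, had the widest range over the 24 libraries (3.31 on the log2 CPM scale), and NDUFA10, a nucleoside-kinase-like accessory subunit of the proximal arm, the narrowest (0.97), against a median range of 1.80. In KO esiCT OXPT replicate 3, NDUFB8 lay 2.35 above its own mean and NDUFB2 1.95 above it (log2 CPM). NDUFA10 lay at its mean in that library, and NDUFS1, the largest iron-sulfur subunit of the N module, lay 0.79 below it (log2 deviation -0.79).

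**Figure D3:**
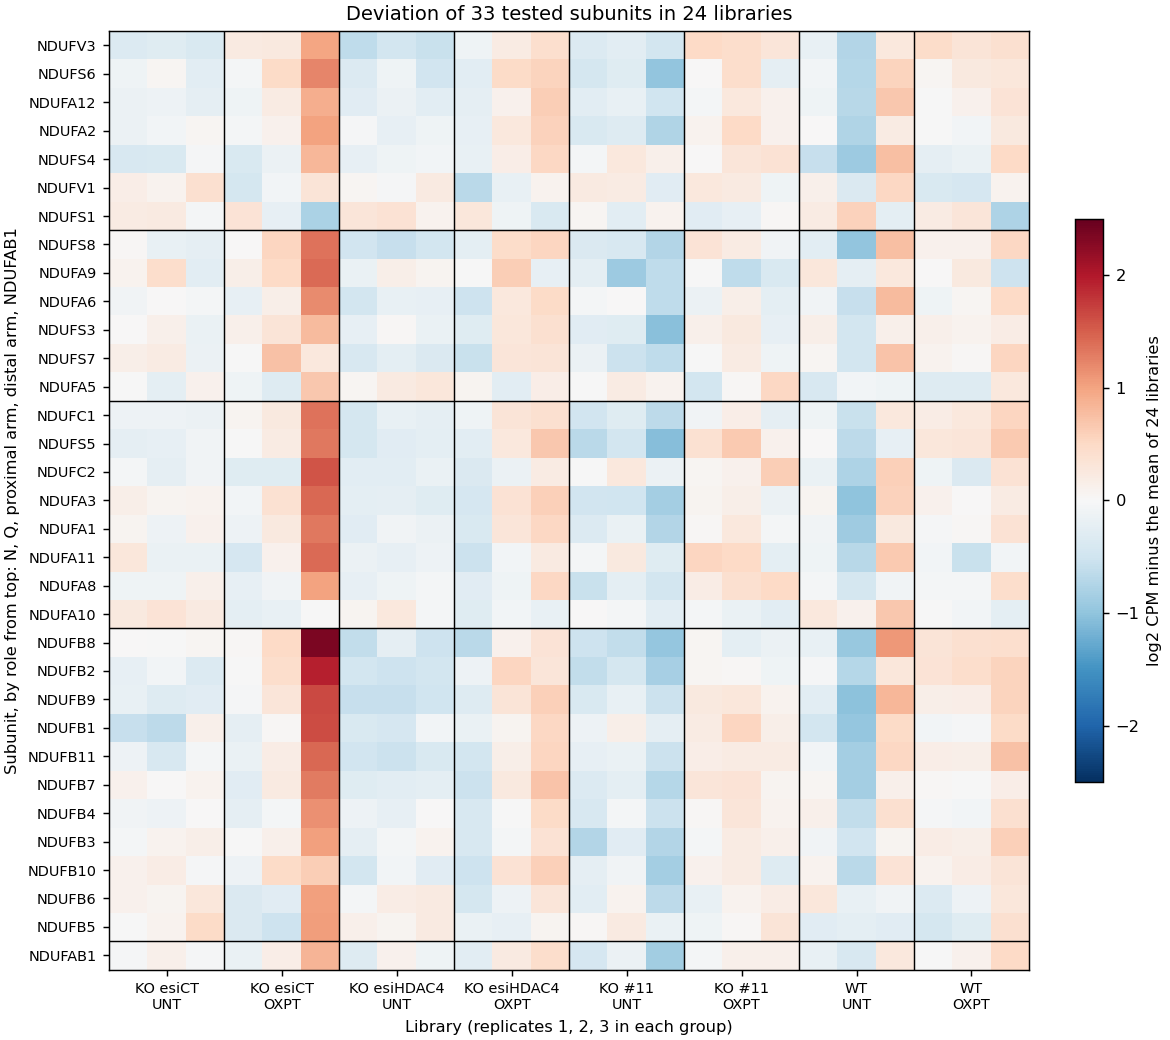
Deviation of each tested member (rows, ordered by place in the complex) from its mean over 24 libraries on the log2 CPM scale; columns are replicates 1, 2 and 3 of each group. The column of KO esiCT OXPT replicate 3 is red for 31 of 33 members, NDUFB8 reaching 2.35, while NDUFS1 is blue there at -0.79.

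The same libraries stood apart in other gene lists. The median deviation of KO esiCT OXPT replicate 3 was 1.14 for the complex I members, 1.37 for the nuclear subunits of complexes II to V, 0.95 for cytosolic ribosomal proteins and 0.48 for mitochondrial ribosomal proteins (log2). For the 1374 tested genes with an exonic length under 2 kb it was 0.81, for the 1961 genes of 10 kb or more it was -0.46, and for the 7 mitochondrial-encoded subunits it was -0.19. Most members have a short main transcript, under 1 kb for 26 of 36. The 2 length classes use another measure, the bases of all annotated exons of a gene. By that measure members ran from 421 bases (NDUFA1) to 19359 bases (NDUFA10), so they do not all belong to the class under 2 kb. Some other libraries numbered 3 were also raised, to a smaller extent. For complex I and for genes under 2 kb, KO esiHDAC4 OXPT replicate 3 stood at 0.43 and 0.33. WT OXPT replicate 3 stood at 0.39 and 0.32, and WT UNT replicate 3 at 0.34 and 0.46. Replicate 3 of KO #11 OXPT, KO esiCT UNT and KO esiHDAC4 UNT stood at 0.06, -0.03 and -0.16 for complex I. WT UNT replicate 2 went the other way, at -0.68 for complex I, -0.59 for complexes II to V and -0.51 for genes under 2 kb. In KO #11 UNT replicate 3, complex I stood at -0.63 and complexes II to V at -0.49, while cytosolic ribosomal proteins stood at -0.04 and genes under 2 kb at -0.19. The part of transcript length or RNA quality in these shifts was not tested.

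**Figure D4:**
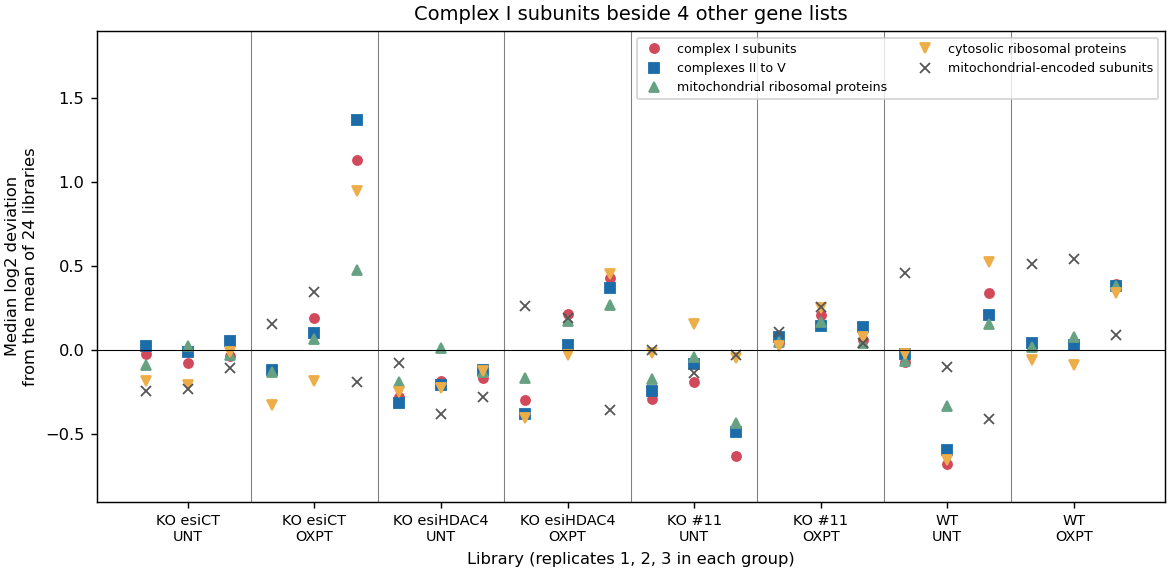
Median log2 deviation from the 24-library mean for the complex I members and 4 other gene lists in each library (replicates 1, 2 and 3 of each group). Complex I lies beside complexes II to V in KO esiCT OXPT replicate 3 (1.14 and 1.37) and in WT UNT replicate 2 (-0.68 and -0.59), where the mitochondrial-encoded subunits are at -0.19 and -0.10.

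After OXPT in KO esiCT cells, 30 of 33 members were higher, and NDUFB2 and NDUFV3 rose. The median log2 fold change of the members was 0.54 against 0.01 over all 12356 tested genes. A gene is called where edgeR's quasi-likelihood test gave a fold change over 1.5 at an adjusted p under 0.05. By that rule 2 of 33 members were called, where the background was 11.3% of all genes in either direction and 6.23% higher, so the members' count was not above it. At an unadjusted p under 0.05 there were 11 members (background 26.1%). DESeq2 called 6 members (NDUFB2, NDUFB8, NDUFB9, NDUFC1, NDUFS5 and NDUFV3), where it called 1859 of all 12356 genes. With the replicate number as a block, edgeR called 4 (NDUFB1, NDUFB2, NDUFC1 and NDUFV3). Groups did not overlap, with OXPT higher, for 7 of 33 members (background 15.3%). Without replicate 3 of the OXPT group, the median fell to 0.06 (all genes -0.01), and 20 members were higher and 13 lower. In that fit no member was called (3 at an unadjusted p under 0.05), where 1002 of all genes were called. Without replicate 1 of that group, the median was 0.78 and 10 members were called. For this fit and the fit with the block, the share of all genes called is not given here. These counts of members therefore cannot be set against it.

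NDUFV3, an accessory subunit of the N module with alternatively spliced isoforms, read 67.9, 69.9 and 66.5 CPM in untreated KO esiCT cells and 101, 102 and 172 CPM with OXPT. All 3 OXPT libraries lay above all 3 untreated ones, and the log2 fold change was 0.88 ± 0.22 (SE; edgeR adjusted p = 0.0121). Without replicate 3 it was 0.57 ± 0.20 (edgeR adjusted p = 0.0929). Without untreated replicate 1 it was 0.86 (edgeR adjusted p = 0.0581). NDUFB2, a small accessory subunit of the distal arm, read 40.0, 43.9 and 36.3 CPM untreated and 46.1, 62.4 and 179 CPM with OXPT. The groups did not overlap, but replicate 3 was far above the others, and the log2 fold change of 1.26 ± 0.34 (edgeR adjusted p = 0.0208) became 0.43 ± 0.24 without it (edgeR adjusted p = 0.324). NDUFB2 was also not called without any 1 of the untreated replicates 1, 2 and 3, at edgeR adjusted p = 0.0829, 0.0596 and 0.0752.

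NDUFB8 had the highest log2 fold change, 1.32 ± 0.48, and was not called (edgeR adjusted p = 0.0804). Its levels were 11.9, 11.7 and 12.2 CPM untreated and 12.1, 16.8 and 61.1 CPM with OXPT, so a single library stood high and the groups overlapped. Without that library the log2 fold change was 0.27 ± 0.39.

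With all libraries, none of the core subunits passed the test in KO esiCT cells. NDUFS8 read 156, 135 and 131 CPM untreated and 153, 222 and 393 CPM with OXPT, with a log2 fold change of 0.87 ± 0.34 (edgeR adjusted p = 0.108), and 0.41 ± 0.33 without replicate 3. NDUFS8 was called only in the fits without OXPT replicate 1 (edgeR adjusted p = 0.0429) or without WT UNT replicate 3 (edgeR adjusted p = 0.0390). NDUFS3 was at 0.44 ± 0.23 and NDUFS7 at 0.29 ± 0.29 on the log2 scale, and without replicate 3 they stood at 0.22 ± 0.24 and 0.33 ± 0.33. The N-module core subunits had negative values: NDUFV1 was at -0.25 ± 0.24 and NDUFS1 at -0.28 ± 0.28. Without replicate 3 NDUFV1 stood at -0.47 ± 0.26 and NDUFS1 at -0.04 ± 0.29. By place in the complex, the median was 0.48 for 7 N-module members, 0.49 for 6 of the Q module, 0.61 for 8 of the proximal arm and 0.50 for 11 of the distal arm, and without replicate 3 these became 0.08, 0.21, -0.04 and 0.10.

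In WT cells OXPT gave a median of 0.18 (all genes -0.06), with 27 members higher and 6 lower. EdgeR called no member (background 10.7%), 3 had an unadjusted p under 0.05 (background 24.7%), and DESeq2 called none (1721 of all 12356 genes). Groups did not overlap, with OXPT higher, for 5 of 33 (background 11.5%). The 2 members with the lowest p were NDUFA10 and NDUFV3. NDUFA10 read 128, 115 and 171 CPM untreated and 106, 102 and 90.0 CPM with OXPT, all lower, with a log2 fold change of -0.48 ± 0.16 (edgeR adjusted p = 0.0553). NDUFV3 read 76.0, 51.7 and 103 CPM untreated and 119, 108 and 114 CPM with OXPT, all higher, at 0.56 ± 0.22 (edgeR adjusted p = 0.108). The WT median rested on the untreated libraries: it was -0.06 without WT UNT replicate 2 and 0.49 without WT UNT replicate 3. NDUFV3 was called without WT UNT replicate 3, at 0.84 (edgeR adjusted p = 0.0120), and NDUFA10 without WT UNT replicate 2, at -0.60 (edgeR adjusted p = 0.0281). Without KO esiCT OXPT replicate 3, which enters only the shared spread here, the median was 0.19 and 6 members had an unadjusted p under 0.05. EdgeR then called NDUFS5 (0.69 ± 0.22, adjusted p = 0.0454), 1 of 1568 genes called in that fit. NDUFS5 stood at 0.68 ± 0.29 with all libraries. In that fit NDUFA10 (-0.47 ± 0.15, edgeR adjusted p = 0.0462) and NDUFV3 (0.57 ± 0.18, edgeR adjusted p = 0.0449) had an adjusted p under 0.05 but a fold under 1.5.

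In KO esiHDAC4 cells OXPT gave a median of 0.37 (all genes 0.02), with 27 members higher and 6 lower. Only NDUFV3 was called, by edgeR (background 12% in either direction and 6.44% higher) and by DESeq2 (1874 of all 12356 genes). At an unadjusted p under 0.05 there were 4 members (background 25.4%). Groups did not overlap, with OXPT higher, for 5 of 33 (background 18.8%). NDUFV3 read 55.9, 62.9 and 59.0 CPM untreated and 80.2, 100 and 116 CPM with OXPT, with no overlap and a log2 fold change of 0.74 ± 0.22 (edgeR adjusted p = 0.0316). That call was lost in 6 of the 24 fits that left out 1 library, at edgeR adjusted p values up to 0.145: those without untreated replicates 1, 2 or 3, OXPT replicates 2 or 3, or KO #11 UNT replicate 2, the log2 fold change staying at 0.60 or more. EdgeR called NDUFB2 as well in the fit without KO esiCT OXPT replicate 3, where the median was 0.35 and 1719 of all genes were called. The median of the members was 0.17 without KO esiHDAC4 OXPT replicate 3 and 0.59 without KO esiHDAC4 OXPT replicate 1.

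In KO #11 cells OXPT gave a median of 0.47 (all genes 0.00), with 30 members higher and 3 lower. EdgeR called NDUFS5 and NDUFV3 (background 9.51% in either direction and 5.94% higher), and 6 members had an unadjusted p under 0.05 (background 23.5%). DESeq2 called NDUFS5, NDUFV3 and NDUFA8, where it called 1557 of all 12356 genes. Groups did not overlap, with OXPT higher, for 20 of 33 members (background 22.4%). With the replicate number as a block edgeR called 4, adding NDUFA8 and NDUFB3, and with these 6 libraries fitted alone it called 9. The share of all genes called in either fit is not given here, so these counts cannot be set against it. NDUFS5 read 203, 233 and 154 CPM untreated and 422, 504 and 347 CPM with OXPT, with no overlap and a log2 fold change of 1.11 ± 0.29 (edgeR adjusted p = 0.0197). NDUFV3 read 67.9, 71.6 and 63.2 CPM untreated and 121, 117 and 106 CPM with OXPT, at 0.76 ± 0.22 (edgeR adjusted p = 0.0309). NDUFS5 lost its call without untreated replicate 1 or 3 or OXPT replicate 1 or 2 (edgeR adjusted p up to 0.0977), its log2 fold change staying at 0.93 or more. NDUFV3 lost its call without any 1 of the untreated replicates or without OXPT replicate 1 or 2 (edgeR adjusted p up to 0.129), staying at 0.69 or more. The fit without KO esiCT OXPT replicate 3 called NDUFA8, NDUFB3, NDUFS5 and NDUFV3, where 1392 of all genes were called, and the median was 0.44. Without untreated replicate 3, the lowest library of the group, the median of the members was 0.32.

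Set side by side, 25 of 33 members were higher with OXPT in all 4 conditions, NDUFS1 and NDUFA10 were lower in all 4, and 6 were mixed (NDUFA5, NDUFA9, NDUFA11, NDUFB5, NDUFB6 and NDUFV1). Without KO esiCT OXPT replicate 3, 19 members were higher in all 4, and NDUFS1 and NDUFA10 were again lower in all 4. NDUFA10 read 127, 136 and 125 CPM in untreated KO esiCT cells and 90.0, 94.3 and 107 CPM with OXPT, all lower, at -0.41 ± 0.16 on the log2 scale (edgeR adjusted p = 0.0937), and -0.49 ± 0.17 without replicate 3. In KO #11 cells its log2 fold change was -0.07 ± 0.16. The 6 members with a main transcript over 4 kb (NDUFA5, NDUFA9, NDUFA10, NDUFB5, NDUFS1 and NDUFV3) had medians of 0.10, -0.05, -0.21 and 0.03 after OXPT in KO esiCT, WT, KO esiHDAC4 and KO #11 cells. The other 27 had medians of 0.56, 0.19, 0.42 and 0.49 in the same order. The KO esiCT medians became -0.11 for the 6 long members and 0.08 for the other 27 without KO esiCT OXPT replicate 3. Among the long members NDUFV3 (5725 bases) was above the median of the other 27 in all 4 conditions, and NDUFA9 (8356 bases) was above it in KO esiCT cells, at 0.67 ± 0.33, and at 0.21 ± 0.31 without that library. Whether the responses differed between conditions was tested directly, and no member was called in any of the 3 differences.

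For the difference of OXPT responses between KO esiCT and WT, the median was 0.32 (all genes 0.09) with 30 of 33 members positive. EdgeR and DESeq2 called none of the members (background 0%) and none had an unadjusted p under 0.05 (background 1.63%). Without KO esiCT OXPT replicate 3 the median turned to -0.12 (all genes 0.02) with 11 members positive. The 2 lowest p values belonged to NDUFA9, an accessory subunit of the Q module, at 0.84 ± 0.46, and NDUFB8 at 1.15 ± 0.67. Without that library they were 0.37 ± 0.41 and 0.08 ± 0.52. For KO esiHDAC4 minus KO esiCT the median was -0.17 and became 0.26 without the same library. None was called by either tool (background 0%), none had an unadjusted p under 0.05 (background 0.154%), and NDUFB8 (-0.89 ± 0.67, and 0.14 without the library) and NDUFA9 (-0.51 ± 0.46, and -0.07 without it) had the lowest p values. For KO #11 minus KO esiCT the median was -0.10 and became 0.29. None was called by edgeR (background 0%) or by DESeq2 (36 of all 12356 genes), and none had an unadjusted p under 0.05 (background 6.98%). NDUFA10 (0.35 ± 0.22, and 0.40 without the library) and NDUFB2 (-0.65 ± 0.48, and 0.15 without it) had the lowest p values.

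The comparisons within OXPT-treated KO cells use the same KO esiCT OXPT libraries, so their values are not independent of the OXPT response above. With esiHDAC4 against esiCT under OXPT, 32 of 33 members were lower and the median was -0.35 (all genes 0.00). None was called by edgeR (background 0%) or by DESeq2 (9 of all 12356 genes). There were 2 members, NDUFB8 and NDUFB2, with an unadjusted p under 0.05 (background 3.08%). NDUFB8 read 7.41, 12.8 and 15.03 CPM with esiHDAC4 against 12.1, 16.8 and 61.1 CPM with esiCT, and the groups overlapped. Its log2 fold change was -1.35 ± 0.48, and -0.30 ± 0.39 without KO esiCT OXPT replicate 3. NDUFB2 went from -0.78 ± 0.34 to 0.04 ± 0.24, and the core subunit NDUFS8 from -0.45 ± 0.34 to 0.00 (log2). Without that library 25 of 33 members were higher with esiHDAC4 and the median was 0.11 (all genes 0.05).

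With #11 against esiCT under OXPT, 30 of 33 members were lower and the median was -0.33 (all genes -0.01). No member was called by edgeR (background 0.121%) or by DESeq2 (126 of all 12356 genes), and 4 members had an unadjusted p under 0.05 (background 10.2%). NDUFA9 read 7.06, 4.56 and 5.45 CPM with #11 and 7.90, 10.1 and 19.3 CPM with esiCT, all lower, at -1.12 ± 0.33 (edgeR adjusted p = 0.225). NDUFB2 was at -1.06 ± 0.34 (edgeR adjusted p = 0.273). Without KO esiCT OXPT replicate 3 these became -0.68 ± 0.31 and -0.26 ± 0.24, the median was 0.04, and 20 of 33 members were higher.

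Without OXPT the excluded library takes no part in the contrast. With esiHDAC4 against esiCT in untreated KO cells, 29 of 33 members were lower with a median of -0.15 (all genes 0.00), and groups did not overlap, with esiHDAC4 lower, for 12 of 33 (background 12.1%). None was called by edgeR (background 0.00809%) or by DESeq2 (40 of all 12356 genes), and none had an unadjusted p under 0.05 (background 3.19%). The lowest p values belonged to NDUFS7 and NDUFB10. NDUFS7 read 6.47, 7.17 and 6.67 CPM against 9.56, 9.86 and 7.72 CPM with esiCT, all lower, at -0.42 ± 0.29 on the log2 scale. NDUFB10, an accessory subunit of the distal arm, read 175, 229 and 199 CPM against 260, 276 and 238 CPM, all lower, at -0.36 ± 0.28. The median of the 1374 genes under 2 kb was -0.12 in the same contrast and that of complexes II to V -0.18.

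With #11 against esiCT in untreated KO cells, 29 of 33 members were lower with a median of -0.37 (all genes 0.00), and groups did not overlap, with #11 lower, for 17 of 33 (background 14.8%). No member was called by edgeR (background 0.51%) or by DESeq2 (409 of all 12356 genes), and 4 members had an unadjusted p under 0.05 (background 13.8%). NDUFB3, an accessory subunit of the distal arm, read 28.0, 38.2 and 28.1 CPM against 45.1, 49.6 and 51.3 CPM with esiCT, all lower, at -0.63 ± 0.25 (edgeR adjusted p = 0.245). NDUFA10 read 108, 103 and 89.1 CPM against 127, 136 and 125 CPM, all lower, at -0.37 ± 0.16 (edgeR adjusted p = 0.287). Complexes II to V had a median of -0.27, mitochondrial ribosomal proteins -0.17, genes under 2 kb -0.03 and cytosolic ribosomal proteins 0.14. Leaving out KO #11 UNT replicate 3, where the members were lowest, gave a median of -0.26.

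KO esiCT cells were also set against WT cells. Untreated, 14 of 33 were higher in KO and 19 lower, with a median of -0.05 (all genes -0.03). None was called by edgeR (background 0.291%) or by DESeq2 (117 of all 12356 genes), and none had an unadjusted p under 0.05 (background 5.74%). NDUFB5, an accessory subunit of the distal arm, had the lowest p and read 32.2, 34.4 and 44.9 CPM in KO and 26.6, 27.4 and 26.5 CPM in WT, all higher, at 0.47 ± 0.31. NDUFB3 was at 0.21 ± 0.25. The median was -0.22 without WT UNT replicate 2 and 0.27 without WT UNT replicate 3. Under OXPT, 31 of 33 were higher in KO with a median of 0.30 (all genes 0.05), which became -0.13 with 9 higher without KO esiCT OXPT replicate 3. No member was called by edgeR (background 0.138%) or by DESeq2 (30 of all 12356 genes). Only 1 member, NDUFA9 (0.84 ± 0.33, and 0.37 ± 0.31 without that library), had an unadjusted p under 0.05 (background 5.4%). NDUFA11, an accessory subunit of the proximal arm, was at 0.79 ± 0.39 and became 0.06 without that library.

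Among other genes of the pathway, the 20 assembly factors were all tested. After OXPT, 3 of them were called in KO esiCT cells and 2 in each of the other conditions, where 11.3%, 10.7%, 12% and 9.51% of all genes were called in KO esiCT, WT, KO esiHDAC4 and KO #11 cells. Their medians were 0.20, 0.12, 0.20 and 0.17 in the same order, and 0.05 in KO esiCT cells without replicate 3. NUBPL, which delivers iron-sulfur clusters to complex I, fell in all 4 conditions, by 1.12 ± 0.30 in KO esiCT, 1.11 ± 0.30 in WT, 1.38 ± 0.31 in KO esiHDAC4 and 1.13 ± 0.30 in KO #11 cells on the log2 scale (edgeR adjusted p = 0.0182, 0.0193, 0.00479 and 0.0221). Without KO esiCT OXPT replicate 3 its fold change in KO esiCT cells was -1.10. NDUFAF7, a mitochondrial methyltransferase, rose by 0.89 ± 0.16 in KO esiCT (0.92 without replicate 3), 0.96 ± 0.16 in WT and 0.78 ± 0.16 in KO esiHDAC4 cells, and stood at 0.43 ± 0.16 in KO #11 cells (edgeR adjusted p = 0.000783, 0.000397, 0.00239 and 0.0928). NDUFAF8 rose in KO esiCT (1.27 ± 0.37) and KO #11 cells (1.18 ± 0.37), and stood at 0.72 in KO esiCT cells without replicate 3.

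Of 11 regulators of nuclear respiratory genes 10 were tested, and none was called after OXPT in KO esiCT or WT cells. EdgeR called 1 in KO esiHDAC4 and 2 in KO #11 cells, all higher, where 12% and 9.51% of all genes were called. Their medians were -0.01, -0.07, -0.17 and -0.24 in KO esiCT, WT, KO esiHDAC4 and KO #11 cells (0.00 in KO esiCT without replicate 3). In the same order 5, 6, 7 and 6 of the 10 were lower. GABPB1 and YY1 were lower in each condition and not called. ESRRA, an orphan nuclear receptor, rose by 0.95 ± 0.27 in KO esiHDAC4 and 0.84 ± 0.26 in KO #11 cells (edgeR adjusted p = 0.0225 and 0.0496). It stood at 0.74 ± 0.26 in WT and 0.37 ± 0.26 in KO esiCT cells (0.63 without replicate 3). In the 3 differences of OXPT responses edgeR called none of the 12356 tested genes, ESRRA included. POLRMT, the mitochondrial RNA polymerase, rose by 0.81 ± 0.19 in KO #11 cells and stood at 0.53 ± 0.19 in KO esiHDAC4, 0.45 ± 0.19 in WT and 0.26 ± 0.19 in KO esiCT cells. All 7 mitochondrial-encoded subunits were tested and all 7 were higher after OXPT in KO esiCT, WT and KO esiHDAC4 cells (medians 0.48, 0.32 and 0.38) and 5 of 7 in KO #11 cells (0.19). Only MT-ND3 in KO esiCT cells was called among them (0.87 ± 0.25, and 0.40 without replicate 3). Their median in KO esiCT cells was 0.51 without that library, whereas the nuclear members went from 0.54 to 0.06. Complexes II to V, with 39 genes tested, went from 0.50 to -0.05, with 3 called higher, where 11.3% of all genes were called in either direction and 6.23% higher.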

How the data were processed

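PolyA RNA-seq of HCT-116 cells gave 36 libraries, of which 24 were grouped by their labels. The authors deposited gene counts, raw and not normalized, in the layout of STAR; the submitters' processing notes name Trimmomatic 0.39, STAR 2.7.11a and hg38, while the study's methods describe salmon with an Ensembl transcriptome, a pipeline that differs from these tables, for which the annotation release is not stated. The unstranded counts were used; reads in bases shared by genes were excluded upstream (10.6 to 12.2% ambiguous). Gene models came from GENCODE, matched by identifier for all 36 members, with lengths of the main transcript.

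Genes with a mean count of 64 or more in at least 1 group were kept. All 24 libraries entered 1 edgeR (4.0.16) quasi-likelihood fit with TMM factors, and p-values were Benjamini-Hochberg adjusted over 12356 genes. Standard errors were derived from the F statistic. Log2 CPM used a prior count of 2. DESeq2 (1.42.0), relative log expression factors, other filters, reverse-strand counts, separate fits, a replicate block and leaving out each library were alternatives; leaving out every library numbered 3 was added after seeing the data. The procedure was tested on simulated data. Same-numbered libraries deviated together (every r over 0.1) in 10 of 13 comparisons, and the exceptions compare #11 with esiCT. The labels state no pairing, and no correlation was computed between libraries with different numbers. The main fit had no replicate block, so its p-values leave out any such pairing, and the block was run only as an alternative.

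The members, lists and tests were chosen with earlier results of these data known. Named were the core subunits, the called members, and the 2 with the lowest p where none was called, besides members with the highest or lowest level per kb or with shared bases. NDUFB8 and the assembly factors, regulators and MT-ND3 were named after their values were seen. No 2 libraries of a group agreed within sampling noise.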

Additional observations from a re-analysis of the deposited data

How the results depend on the processing

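KO esiCT OXPT replicate 3 moved more results than any processing choice. When each of the 24 libraries was left out in turn, the count of called members ranged from 0 to 10 for OXPT in KO esiCT, 0 to 1 in WT, 0 to 2 in KO esiHDAC4 and 0 to 4 in KO #11, and stayed at 0 in the other 9 comparisons. In the same fits the median log2 fold change ranged from 0.062 to 0.78 for OXPT in KO esiCT, from -0.59 to 0.11 for esiHDAC4 against esiCT under OXPT, from -0.54 to 0.038 for #11 against esiCT under OXPT and from -0.13 to 0.55 for KO against WT under OXPT. The differences of OXPT responses ranged from -0.12 to 0.54 for KO esiCT minus WT, from -0.40 to 0.26 for KO esiHDAC4 minus KO esiCT and from -0.27 to 0.29 for KO #11 minus KO esiCT. For each of these medians, KO esiCT OXPT replicates 1 and 3 gave the extremes. Of named members, NDUFB2 ranged from -1.12 to 0.038 for esiHDAC4 against esiCT under OXPT, NDUFB8 from -1.26 to 0.14 in the difference between esiHDAC4 and esiCT and NDUFB2 from -0.98 to 0.15 in that between #11 and esiCT, and these signs turned without replicate 3. Leaving out number 3 everywhere, an alternative chosen after seeing the data, gave medians of 0.069 for OXPT in KO esiCT, 0.038 for #11 against esiCT and -0.042 for KO against WT under OXPT, and -0.27 for KO esiCT minus WT. It called 0 members in KO esiCT and 5 in WT after OXPT, and 1 for #11 in untreated cells. With the replicate block, edgeR called 4 after OXPT in KO esiCT and 4 in KO #11, and the block moved no other count of called members. DESeq2 called 6 after OXPT in KO esiCT, where it called 1859 of all 12356 genes. With only the groups compared in the fit, the counts were 0 after OXPT in KO esiCT, 9 in KO #11 and 1 for #11 in untreated cells. With no count filter they were 4 after OXPT in KO esiCT, 0 in KO esiHDAC4, 1 in KO #11 and 1 for #11 under OXPT, and with the filter in every group 0 in KO esiHDAC4. The share of all genes called is not given here for these filters, the separate fits and the replicate block. Nor is it given for left-out libraries other than KO esiCT OXPT replicate 3. The cause of these changes was not tested. With raw library totals the mean summed level was 3315 CPM in untreated KO esiCT and 3072 CPM in untreated KO esiHDAC4 cells. Reverse-strand counts and relative log expression factors changed none of the called counts by over 1.5 times and moved none of the medians by more than the spread between replicates. Shortening the NRF1-type letters to GCATGC raised the members with a match from 5 to 8 (25.0%, against 8.80% of all genes). Arms of 3 libraries limit the precision throughout.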

Other observations

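The 12 WT libraries without a group had summed levels of the 36 members of 2315 to 4123 CPM (median 3244), computed with raw library totals. On the same scale the 24 grouped libraries ranged from 2314 to 5735 CPM (median 3300), and the next highest after 5735 was 4165 CPM. Between 7.82% and 16.8% of reads were unmapped in the 12 libraries.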
